A study of Mus musculus with 6 samples.

Results

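Hephaestin, encoded by Heph, and 8 further genes of iron handling were followed in whole mouse aorta. They are 9 of the 35275 genes in the deposited table, picked by symbol. They comprise the ferroxidase genes Heph and Cp, the exporter Slc40a1, the importer Slc11a2, the transferrin receptor Tfrc, transferrin itself (Trf), the ferritin chains Fth1 and Ftl1, and the haem-degrading enzyme Hmox1. The set was drawn up because Heph stood out in the comparison described here, so the differences of its members between genotypes are given as a description and carry no test.

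RNA from aorta was sequenced in 6 libraries, 3 from EC-Jag1KO mice, in which the endothelium lacks Jagged1, a ligand of Notch receptors, and 3 from wild-type mice. The series title frames the question as how vessel function and smooth muscle respond when adult endothelium loses this ligand. The strain, the age, the promoter that drives the deletion and whether each library is a separate animal stand in no label used here. Any statement on spread therefore covers these libraries, and the spread may be in part technical. Reads in genes numbered 19889910 to 25914325 in EC-Jag1KO libraries and 23630029 to 25705412 in wild-type libraries. Xist and 4 Y-linked genes mark replicate 3 of each genotype as female and the other 4 libraries as male, so each genotype holds 2 male libraries and 1 female library. The female library of a genotype thus comes from another animal than the male ones, while the 2 male libraries may or may not share an animal.

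Iron enters most cells as transferrin-bound ferric iron through the transferrin receptor, is reduced in the endosome by a STEAP reductase and crosses into the cytosol through the transporter encoded by Slc11a2. Ferritin stores the surplus in shells of heavy and light chains, and ferroportin, encoded by Slc40a1, exports it. Iron that leaves the cell must be oxidised by a multicopper ferroxidase, hephaestin on membranes or ceruloplasmin in plasma and on cell surfaces, before transferrin can carry it. Hephaestin is best known from the enterocyte, where it works beside ferroportin. In cells short of iron, the iron regulatory proteins encoded by Aco1 and Ireb2 bind hairpins called iron-responsive elements, which blocks translation when the hairpin lies in the 5′ UTR and protects the mRNA when it lies in the 3′ UTR.

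Because this control acts on the RNA itself, the hairpins were searched in the mRNAs. The motif was a C, then 5 bases, then the loop CAGTGN, then 5 bases that pair with the first 5 (G-T pairs allowed), read on the RNA's own strand. Of 21901 protein-coding genes in GENCODE M21 (GRCm38, the assembly also called mm10), 294 (1.34%) held at least 1 match in a protein-coding transcript. The matches among the members lay in 4 of 9 genes, namely Fth1, Ftl1, Slc40a1 and Tfrc. The transcripts of Heph, Cp, Slc11a2, Trf and Hmox1 held no run of these letters with that pairing. Hairpins with another loop, a shorter stem or further unpaired bases were not searched. The search therefore cannot show that these genes lack an iron-responsive element. The Fth1 element lies in the 5′ UTR at chr19:9982732-9982761 on the plus strand, the Ftl1 element in the 5′ UTR at chr7:45459778-45459807 on the minus strand, and the Slc40a1 element in the 5′ UTR at chr1:45925464-45925493 on the minus strand. The 4 Tfrc elements lie in the 3′ UTR on the plus strand, from chr16:32631219-32631248 to chr16:32631710-32631739. They are shown as DNA letters, 5′ to 3′, with the loop in capitals, to set the storage and export genes beside Tfrc.
Fth1: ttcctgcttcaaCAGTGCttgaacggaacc
Ftl1: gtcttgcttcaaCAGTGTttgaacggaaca
Slc40a1: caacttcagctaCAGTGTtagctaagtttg
Tfrc element 1: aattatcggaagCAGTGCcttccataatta
Tfrc element 2: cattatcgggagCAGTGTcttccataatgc
Tfrc element 3: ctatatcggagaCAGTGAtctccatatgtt
Tfrc element 4: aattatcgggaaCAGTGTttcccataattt

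Values are FPKM (fragment counts divided by gene length and by the library's total in genes), so levels can be set side by side between genes. The ferritin genes were by far the most abundant members. Fth1 averaged 2434 ± 196 FPKM in EC-Jag1KO and 2418 ± 101 FPKM in wild-type aorta (SD, n = 3 each), rank 13 and rank 14 among the 12165 genes that averaged 1 FPKM or more. Ftl1 averaged 565 ± 118 FPKM in EC-Jag1KO and 550 ± 25 FPKM in wild-type aorta, rank 56 and rank 61. Cp came next at 17.7 and 23.1 FPKM, followed by Hmox1 at 9.98 and 7.23 FPKM and Slc11a2 at 6.53 and 6.73 FPKM, with EC-Jag1KO given first in each pair. In EC-Jag1KO libraries Heph overlapped Slc11a2 in range and lay above Tfrc, whereas in wild-type libraries the ranges of Heph and Tfrc overlapped. Slc40a1 averaged under 1 FPKM in both genotypes and Trf stood near 0, so 7 of the 9 members were in the fit over all genes. In wild-type libraries the ranges of Hmox1 and Slc11a2 overlapped as well, so these neighbours in the order do not differ beyond their spread.

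**Figure D1:**
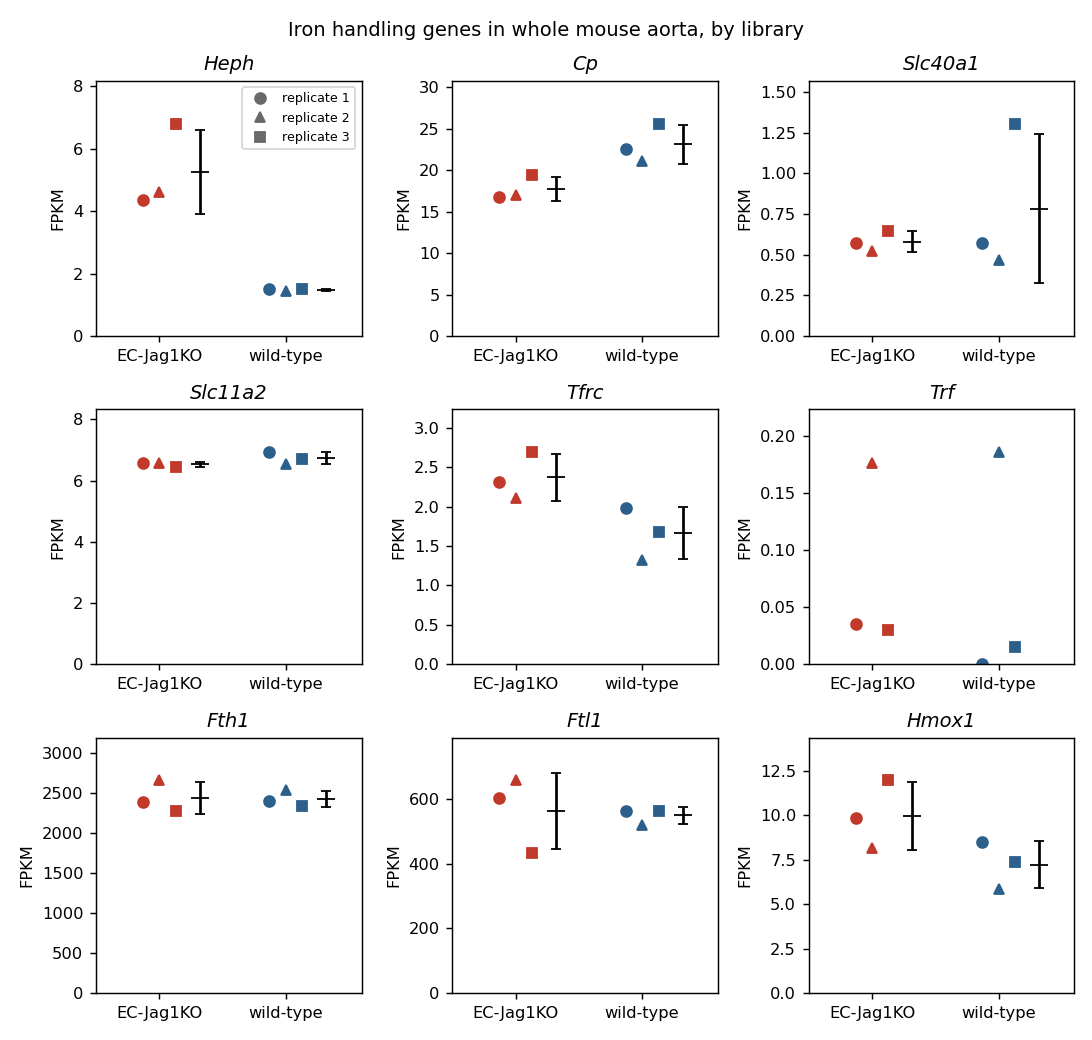
FPKM of the 9 genes in each library, EC-Jag1KO in red and wild-type in blue, with a marker shape per replicate number and the mean ± SD in black (not drawn for Trf); each panel has its own linear axis from 0. Heph lies between 4.37 and 6.81 FPKM in EC-Jag1KO libraries, above the 1.43 to 1.50 FPKM of the wild-type libraries, while the groups overlap for Fth1, Ftl1, Slc11a2, Slc40a1, Trf and Hmox1.

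Heph (ENSMUSG00000031209, plus strand of chromosome X, 96455359 to 96574485 in mm10) stood at 4.37, 4.61 and 6.81 FPKM in EC-Jag1KO libraries, against 1.50, 1.43 and 1.50 FPKM in wild-type libraries. The groups lay far apart: the lowest EC-Jag1KO library was 2.91 times the highest wild-type library. The wild-type libraries were nearly identical, while the highest EC-Jag1KO library was 1.56 times the lowest. The means were 5.26 ± 1.34 FPKM in EC-Jag1KO and 1.48 ± 0.04 FPKM in wild-type aorta (SD, n = 3 each), a ratio of 3.57. These values rest on 454, 435 and 837 reads in EC-Jag1KO libraries and on 168, 170 and 183 reads in wild-type libraries, well above the counting limit. On the log2(FPKM + 1) scale, which understates the change of low genes, the fold change was 1.32 with a standard error of 0.16 and a 95% interval from 0.94 to 1.70. In a limma voom fit to reads recovered from the FPKM values, which adds less to low values, the fold was 3.53 with an interval from 2.44 to 5.09. Of the 12165 genes in the fit, 27 had a larger positive log2 fold change than Heph, and 17 of those had groups that did not overlap.

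The female EC-Jag1KO library had the highest Heph level, and the female wild-type library did not stand apart from the male ones. Among male libraries Heph averaged 4.49 FPKM in EC-Jag1KO and 1.46 FPKM in wild-type aorta, a ratio of 3.07. The female libraries had 6.81 FPKM in EC-Jag1KO and 1.50 FPKM in wild-type, a ratio of 4.54. With 1 female library per genotype, a difference between these ratios was not tested.

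Cp, which encodes ceruloplasmin, lay the other way. It stood at 16.8, 17.0 and 19.4 FPKM in EC-Jag1KO libraries, against 22.6, 21.1 and 25.6 FPKM in wild-type libraries. All 3 EC-Jag1KO libraries were below all 3 wild-type libraries, with the female library highest in each genotype. The means were 17.7 ± 1.4 FPKM in EC-Jag1KO and 23.1 ± 2.3 FPKM in wild-type aorta (n = 3 each), or -0.36 as a log2 fold change, with an interval from -0.62 to -0.11, on 1547 to 3005 reads per library. In GENCODE M21 Cp overlaps Hps3 on the opposite strand in 1.13% of its exon bases, and Heph overlaps Hsf3 on the opposite strand in 0.378%. Reads in these shared bases were not counted, so their part in either value was not tested.

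Added together, the transcripts of the 2 ferroxidase genes differed less than either gene alone. Heph plus Cp came to 21.1, 21.7 and 26.2 FPKM in EC-Jag1KO libraries, against 24.1, 22.5 and 27.1 FPKM in wild-type libraries, so the summed levels overlapped. The makeup of the sum did not overlap: Heph gave 20.7%, 21.3% and 26.0% of it in EC-Jag1KO libraries, against 6.22%, 6.34% and 5.54% in wild-type libraries. With Heph higher and Cp lower in every EC-Jag1KO library, these shares could not overlap, so they are no separate result. The sum was formed after the values of both genes were seen. Hephl1, the paralog of Heph, averaged under 1 FPKM and was not in the fit.

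**Figure D2:**
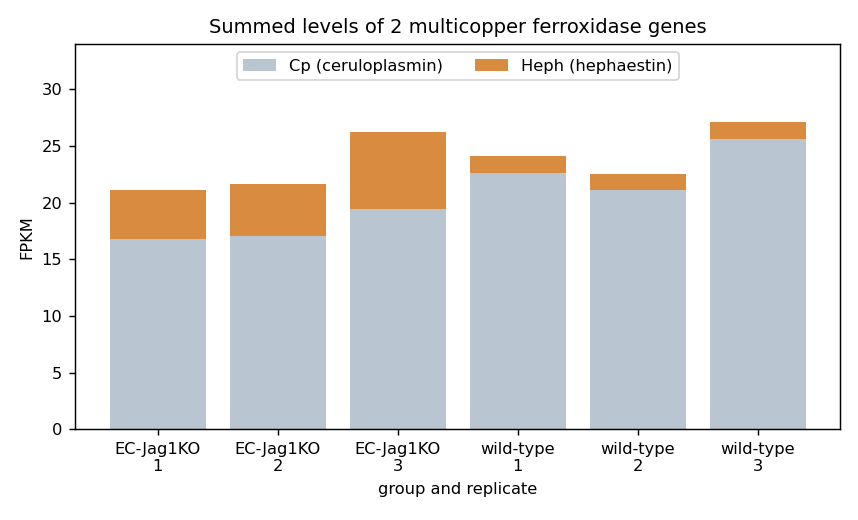
Stacked bars of FPKM per library, Cp below and Heph on top, with EC-Jag1KO replicates on the left and wild-type replicates on the right. The totals of 21.1 to 26.2 FPKM in EC-Jag1KO and 22.5 to 27.1 FPKM in wild-type libraries overlap, while the Heph part is larger in every EC-Jag1KO library.

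Ferroportin, the exporter that ferroxidases work with, was scarce. Slc40a1 stood at 0.570, 0.525 and 0.648 FPKM in EC-Jag1KO libraries, against 0.571, 0.466 and 1.31 FPKM in wild-type libraries. The groups overlapped, and the female wild-type library alone lay above 1 FPKM, with 132 reads against 41 to 66 in the other 5 libraries. The other 5 libraries all lay between 0.466 and 0.648 FPKM.

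On the uptake side, Tfrc, the transferrin receptor gene whose 3′ UTR carries the 4 hairpins above, stood at 2.31, 2.11 and 2.69 FPKM in EC-Jag1KO libraries, against 1.98, 1.33 and 1.68 FPKM in wild-type libraries. The groups did not overlap, but the gap was small: the lowest EC-Jag1KO value exceeded the highest wild-type value by less than the SD of either group. The means were 2.37 ± 0.30 FPKM in EC-Jag1KO and 1.66 ± 0.33 FPKM in wild-type aorta (n = 3 each), or 0.34 as a log2 fold change, with an interval from -0.0025 to 0.69, on 163 to 341 reads. Slc11a2, the divalent metal transporter, was the steadiest member, at 6.58, 6.58 and 6.43 FPKM in EC-Jag1KO libraries and 6.93, 6.54 and 6.71 FPKM in wild-type libraries. Its groups overlapped and its log2 fold change was -0.037, with an interval from -0.24 to 0.17.

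Trf, the gene of transferrin, was listed at 0.0355, 0.176 and 0.0300 FPKM in EC-Jag1KO libraries and at 0, 0.186 and 0.0151 FPKM in wild-type libraries. These are 2, 9 and 2 reads in EC-Jag1KO libraries, against 0, 12 and 1 reads in wild-type libraries, so no difference is detectable at this depth. For the library at 0, a count of 0 allows up to 0.0494 FPKM (3 reads), for counting error only. The level itself is uncertain as well, because Gm20425 lies on the same strand and its exons cover 82.0% of the bases of the Trf transcript Trf-201 in GENCODE M21. How the counting treated reads that fall in both genes is stated in no source used here, and its part in the low value was not tested.

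The ferritin genes, whose mRNAs carry nearly the same hairpin in the 5′ UTR, did not separate the genotypes. Fth1, the ferroxidase chain of ferritin, stood at 2379, 2652 and 2270 FPKM in EC-Jag1KO libraries, against 2397, 2527 and 2329 FPKM in wild-type libraries. Its log2 fold change was 0.0073, with an interval from -0.34 to 0.36. Ftl1, the light chain that favours mineral formation, stood at 604, 659 and 433 FPKM in EC-Jag1KO libraries, against 565, 521 and 564 FPKM in wild-type libraries. Its groups overlapped because the female EC-Jag1KO library was lowest of all 6, and its log2 fold change was 0.017, with an interval from -0.39 to 0.43. The ratio of heavy to light chain transcripts was 3.94, 4.02 and 5.24 in EC-Jag1KO libraries and 4.24, 4.85 and 4.13 in wild-type libraries, so the ratios overlapped too. Ferritin genes have processed copies in the mouse genome, and reads shared with such copies make their absolute levels uncertain.

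Hmox1, haem oxygenase 1, which frees iron from haem and is induced by haem and oxidative stress, stood at 9.84, 8.14 and 12.0 FPKM in EC-Jag1KO libraries, against 8.48, 5.85 and 7.36 FPKM in wild-type libraries. The groups overlapped: EC-Jag1KO replicate 2 lay below wild-type replicate 1. The means were 9.98 ± 1.92 FPKM in EC-Jag1KO and 7.23 ± 1.32 FPKM in wild-type aorta (n = 3 each), on 236 to 498 reads. The log2 fold change was 0.41, with an interval from 0.016 to 0.81. That interval spanned 0 with no filter (-0.011 to 0.84) and without both female libraries (-0.17 to 0.77).

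**Figure D3:**
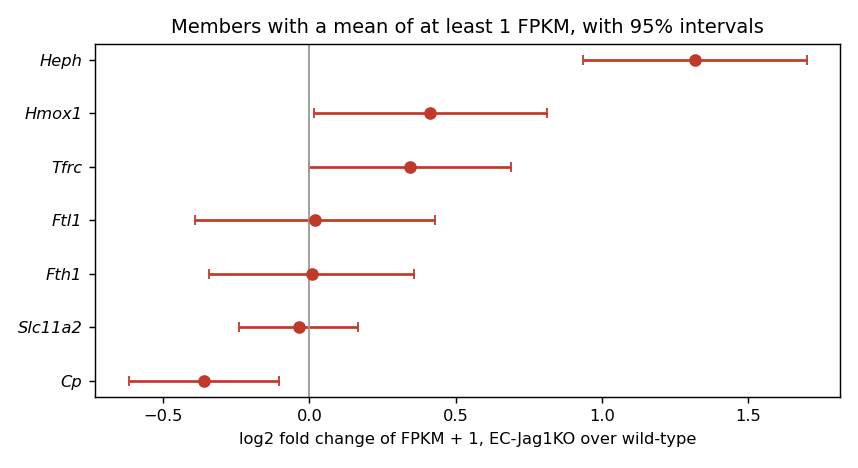
Log2 fold change of FPKM + 1, EC-Jag1KO over wild-type, for the 7 members that averaged 1 FPKM or more, with 95% intervals from the limma fit. Heph lies at 1.32, Hmox1 at 0.41, Tfrc at 0.34, Ftl1, Fth1 and Slc11a2 near 0, and Cp at -0.36.

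Within the sexes the log2 differences, EC-Jag1KO minus wild-type, were -0.35 in male and -0.38 in female libraries for Cp. They were 0.28 in male and 0.46 in female libraries for Tfrc, and 0.30 in male and 0.63 in female libraries for Hmox1. For Ftl1 they pointed opposite ways, at 0.22 in male and -0.38 in female libraries. With 1 female library per genotype these differences between sexes were not tested.

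Across the whole table limma called 0 of 12165 genes (0%) at an adjusted p of 0.05, the smallest adjusted p being 0.232, and 938 genes (7.71%) had an unadjusted p under 0.05; limma voom on recovered reads also called 0 genes. None of the 7 members in the fit was among genes passing the adjusted threshold. Groups that do not overlap were found in 6.84% of tested genes on the higher side and in 6.73% on the lower side, against 2 members on the higher side (Heph and Tfrc) and 1 on the lower side (Cp). The median log2 fold change was 0.017 over the 7 members and -0.00022 over all tested genes.

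The aorta is a mixture, and in a bulk sample fewer cells of a type and less RNA per cell cannot be told apart. Defining markers of smooth muscle, endothelium and fibroblasts were all present, each averaging 1 FPKM or more. The 6 smooth muscle markers summed to 11422 to 13631 FPKM in EC-Jag1KO and 13704 to 14388 FPKM in wild-type libraries, 3 of them not overlapping and lower. Among 6 fibroblast markers 2 were higher without overlap. Pdgfra stood at 17.7 to 21.7 FPKM in EC-Jag1KO and 14.8 to 15.8 FPKM in wild-type libraries. Lum stood at 70.1 to 76.2 FPKM in EC-Jag1KO and 58.1 to 67.0 FPKM in wild-type libraries. The groups overlapped for the rest, with Dpt and Col1a1 higher and Dcn and Pi16 lower on average in EC-Jag1KO. Dcn, the most abundant, stood at 580, 663 and 563 FPKM in EC-Jag1KO libraries, against 686, 742 and 561 FPKM in wild-type libraries. Of 5 mesothelial markers, 3 were higher without overlap, and their sum was 1.24 to 2.51 FPKM in EC-Jag1KO against 0.400 to 0.530 FPKM in wild-type libraries; none averaged 1 FPKM or more. Cardiomyocyte markers summed to 14.2, 39.1 and 12.08 FPKM in EC-Jag1KO libraries, against 9.95, 7.81 and 12.06 FPKM in wild-type libraries. The highest sum, in EC-Jag1KO replicate 2, held Myl7 at 10.3 FPKM and Myh6 at 6.82 FPKM. No other library exceeded 0.232 FPKM of Myl7 or 2.64 FPKM of Myh6. Of the 5 markers 1, Actn2, was higher without overlap, reaching 17.0 FPKM in EC-Jag1KO and 6.50 FPKM in wild-type libraries. The 7 erythroid markers, which bear on iron and haem genes, summed to 190, 444 and 919 FPKM in EC-Jag1KO libraries and 1519, 741 and 1227 FPKM in wild-type libraries, with overlap. The 8 macrophage markers, from cells that recycle iron, summed to 226 to 257 FPKM in EC-Jag1KO and 195 to 252 FPKM in wild-type libraries. Of these, 1 marker, Cd68, was higher without overlap. The groups of all other macrophage markers overlapped, with Adgre1 and Cd163 lower on average in EC-Jag1KO and the rest higher. White adipocyte markers ranged from 918 to 2196 FPKM in EC-Jag1KO and from 418 to 2394 FPKM in wild-type libraries, and brown adipocyte markers from 236 to 382 FPKM in EC-Jag1KO and from 43.7 to 536 FPKM in wild-type libraries. Sums for Schwann cells were 10.9 to 13.1 FPKM in EC-Jag1KO and 7.93 to 12.1 FPKM in wild-type libraries, and endothelial, fibroblast, skeletal muscle and lymphocyte sums overlapped as well. The part of these cell types in the members' values was not tested. Jag1 itself averaged 14.2 ± 5.1 FPKM in EC-Jag1KO and 12.4 ± 3.8 FPKM in wild-type aorta, a value over the whole gene and all cell types that does not check the endothelial deletion.

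Among the genes whose pattern over the 6 libraries was most like that of Heph were Lpar1, Rbm20, Lacc1 and Rnf13, ranked by Pearson correlation of log2(FPKM + 1) among named protein-coding genes in the fit. The coefficients were 0.993 for Lpar1, 0.989 for Rbm20, 0.984 for Lacc1 and 0.984 for Rnf13, over 6 libraries that share the split by genotype. Lpar1, a receptor for lysophosphatidic acid, stood at 8.79, 8.59 and 9.39 FPKM in EC-Jag1KO libraries, against 6.72, 6.88 and 6.87 FPKM in wild-type libraries. Rnf13, an E3 ubiquitin ligase gene, stood at 29.6, 28.7 and 33.9 FPKM in EC-Jag1KO libraries, against 24.1, 23.7 and 24.4 FPKM in wild-type libraries. In all 4 the female EC-Jag1KO library was highest, as for Heph. They were picked from 11105 genes for likeness to Heph, so this shared peak is no separate result. Their log2 fold changes of 0.34 to 0.48 were well below the 1.32 of Heph. Of the other members in the fit, Tfrc had a coefficient of 0.864, Hmox1 of 0.809, Fth1 of -0.107, Ftl1 of -0.184, Slc11a2 of -0.672 and Cp of -0.762. How many of all tested genes reach such coefficients was not counted.

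**Figure D4:**
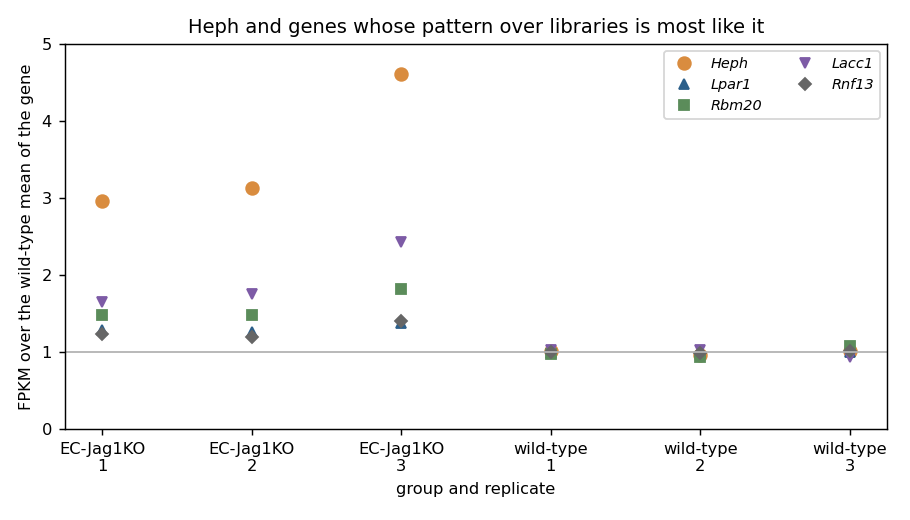
FPKM of Heph and of Lpar1, Rbm20, Lacc1 and Rnf13, whose patterns were among the most similar, each divided by its own mean over wild-type libraries, with EC-Jag1KO replicates on the left and wild-type replicates on the right; the grey line marks the wild-type mean. The wild-type points of each gene sit close together near 1 and EC-Jag1KO replicate 3 is highest for each gene. The genes were picked for likeness to Heph, so this shape is no separate result.

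Genes around the members were read from 8 lists of related genes, 133 genes in all without the members, of which 113 were in the fit. In these lists 0 genes passed the adjusted threshold in either direction in limma, 9 (7.96%) had an unadjusted p under 0.05 on the higher side and 0 on the lower side, against 4.25% and 3.46% of all tested genes, and limma voom also called 0. Of the 113 genes 76 (67.3%) lay higher and 37 lower, while 49.9% of all tested genes lay higher. That share stands beside the counts of each list below as well. The median log2 fold change of the 113 genes was 0.085, against -0.00022 over all tested genes. With 1 library left out the median ran from 0.044 (wild-type replicate 2 omitted) to 0.12 (EC-Jag1KO replicate 3 omitted), with 0.055 when either of the male EC-Jag1KO libraries was omitted, and it was 0.14 without both female libraries. Groups that do not overlap were found in 10 of the 113 genes (8.85%) on the higher side and in 5 (4.42%) on the lower side, against 6.84% and 6.73% of all tested genes. In the 5 lists of iron genes alone (76 tested), only 1 gene (1.32%) had an unadjusted p under 0.05 on the higher side and 0 on the lower side, and the groups did not overlap for 2 genes on the higher side and 4 on the lower side. The 9 genes of small p lay in the uptake (1), copper (2), NRF2 (3) and hypoxia (3) lists.

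Among 10 tested genes of iron uptake and release, 6 lay higher and 4 lower, with a median of 0.087. Steap3, the endosomal ferrireductase that works beside the transferrin receptor, stood at 11.3, 11.3 and 12.9 FPKM in EC-Jag1KO libraries, against 7.88, 9.32 and 8.62 FPKM in wild-type libraries. Its groups did not overlap, the log2 fold change was 0.42 and the limma adjusted p was 0.402. Lcn2, a protein that binds bacterial siderophores, was spread from 0.399 to 4.44 FPKM in EC-Jag1KO and from 0.0290 to 1.14 FPKM in wild-type libraries, and Slc22a17, reported as its receptor, had a log2 fold change of -0.24 (adjusted p = 0.757 in limma), or -0.076 without wild-type replicate 3.

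In the list of iron sensing and the hepcidin axis, 11 of 15 tested genes lay higher and 4 lower, with a median of 0.077. Ireb2, an iron regulatory protein gene, averaged 7.01 ± 0.82 FPKM in EC-Jag1KO and 5.91 ± 0.63 FPKM in wild-type aorta (n = 3 each). Fbxl5, the iron-sensing ubiquitin ligase subunit that removes the Ireb2 product, averaged 11.6 ± 0.3 FPKM in EC-Jag1KO and 10.4 ± 0.9 FPKM in wild-type aorta. Bmpr2, a receptor of the pathway that drives hepcidin in liver, had a log2 fold change of 0.17. The groups of all 3 overlapped, with limma adjusted p of 0.735 to 0.772.

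The list of ferritin handling and iron chaperone genes also holds Blvra, Blvrb and Nup54. In it 6 of 7 tested genes lay higher, against 49.9% of all tested genes, with a median of 0.11. The smallest p in this list belonged to Blvra, Nup54 and Blvrb, which lay 0.18, 0.18 and 0.19 higher on the log2 scale, each interval spanning 0. Blvrb was at 0.064 when EC-Jag1KO replicate 2 was left out and at 0.41 when replicate 3 of that genotype was. Nup54 was at 0.055 when EC-Jag1KO replicate 1 was left out and at 0.30 when replicate 2 of that genotype was. Blvra and Blvrb encode the biliverdin reductases, which act after haem oxygenase. Of 21 tested genes of haem synthesis, transport and breakdown, 13 lay higher and 8 lower, with a median of 0.058. Abcg2, an exporter of porphyrins and other compounds, stood at 6.90, 6.12 and 6.45 FPKM in EC-Jag1KO libraries, against 5.56, 3.77 and 5.98 FPKM in wild-type libraries, with no overlap and a limma adjusted p of 0.686. Alad, an early enzyme of haem synthesis, and Mfsd7b, the symbol in the table for the haem exporter Flvcr1, lay 0.40 and 0.18 higher on the log2 scale, each interval spanning 0.

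In the mitochondrion, 16 of 23 tested genes of iron import and iron-sulphur cluster assembly lay higher and 7 lower, with a median of 0.085. Slc25a37, mitoferrin 1, which carries iron into the mitochondrion and is abundant in erythroid cells, stood at 5.92, 4.91 and 5.89 FPKM in EC-Jag1KO libraries, against 6.61, 6.31 and 7.88 FPKM in wild-type libraries. The groups did not overlap, the log2 fold change was -0.27 and the limma adjusted p was 0.654; the part of the erythroid marker sums given above in this value was not tested. Nfs1, the cysteine desulphurase of cluster assembly, had a log2 fold change of 0.22 (adjusted p = 0.738 in limma).

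Hephaestin and ceruloplasmin need copper, and copper genes were read for that reason. Of 13 tested copper handling genes 9 lay higher and 4 lower, with a median of 0.13, and 3 were higher without overlap. Slc31a1, the copper importer of the plasma membrane, stood at 5.74, 5.01 and 5.76 FPKM in EC-Jag1KO libraries, against 4.52, 4.02 and 4.20 FPKM in wild-type libraries. Atp7a, the pump that loads copper into the secretory pathway, stood at 2.64, 1.88 and 3.21 FPKM in EC-Jag1KO libraries, against 1.59, 1.70 and 1.59 FPKM in wild-type libraries. Neither group pair overlapped, and the limma adjusted p were 0.549 for Slc31a1 and 0.609 for Atp7a. Sod3, the copper-containing extracellular superoxide dismutase, averaged 318 ± 26 FPKM in EC-Jag1KO and 271 ± 15 FPKM in wild-type aorta (n = 3 each; adjusted p = 0.693 in limma).

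Fth1, Ftl1 and Hmox1 are known targets of the oxidative stress factor NRF2, and other targets were read beside them. Of 13 tested targets 8 lay higher and 5 lower, with a median of 0.068. The 3 of smallest p, Tkt, Me1 and Pgd, are enzymes of the pentose phosphate pathway and of NADPH supply that also serve fat synthesis. Tkt stood at 263, 138 and 154 FPKM in EC-Jag1KO libraries, against 103, 49.2 and 90.7 FPKM in wild-type libraries (log2 fold change 1.19, limma adjusted p = 0.458). Me1 and Pgd had log2 fold changes of 0.96 and 0.60, with adjusted p of 0.588 and 0.592. In all 3 genes EC-Jag1KO replicate 1 was highest and wild-type replicate 2 lowest. Wild-type replicate 3 stood at 90.7 FPKM of Tkt, 36.3 FPKM of Me1 and 18.3 FPKM of Pgd, below every EC-Jag1KO library. White adipocyte marker sums were 2196, 1759 and 918 FPKM in EC-Jag1KO libraries and 1481, 418 and 2394 FPKM in wild-type libraries. The part of adipocytes in the values of these 3 genes was not tested. Without EC-Jag1KO replicate 1 the log2 fold changes of Me1 and Pgd were 0.56 and 0.36.

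Of 11 tested hypoxia response genes 7 lay higher and 4 lower, with a median of 0.26. Adm, adrenomedullin, stood at 26.9, 30.5 and 26.1 FPKM in EC-Jag1KO libraries, against 11.2, 11.7 and 17.4 FPKM in wild-type libraries (log2 fold change 1.02, limma adjusted p = 0.259). Egln3, an oxygen-sensing prolyl hydroxylase, stood at 4.70, 5.29 and 4.83 FPKM in EC-Jag1KO libraries, against 2.67, 1.93 and 3.61 FPKM in wild-type libraries (adjusted p = 0.402 in limma). Pdk1, a kinase that restrains pyruvate oxidation, had groups that overlapped and a log2 fold change of 0.59.

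**Figure D5:**
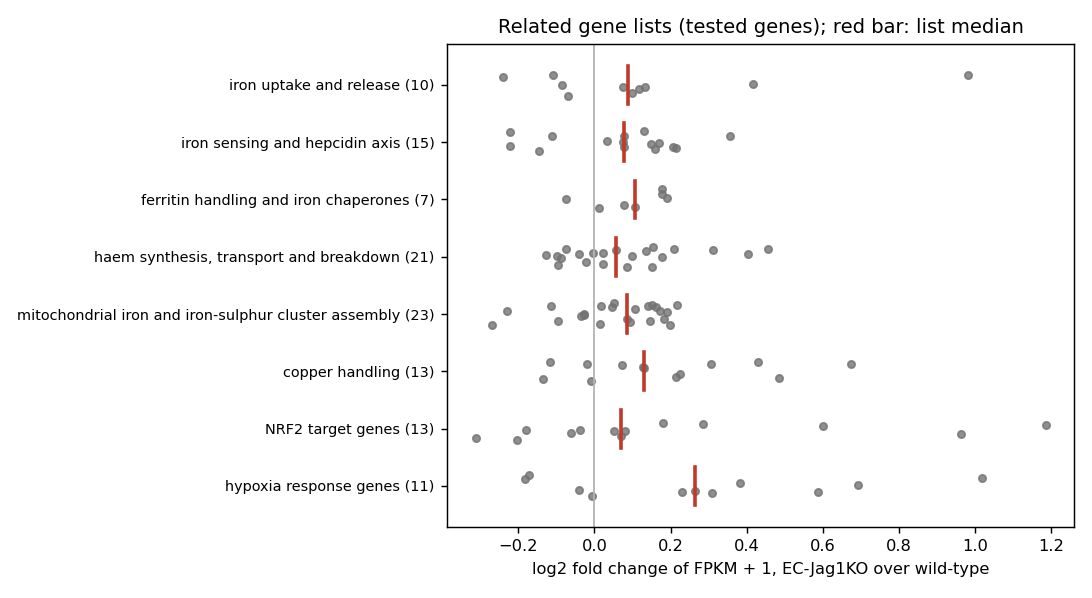
Log2 fold change of FPKM + 1, EC-Jag1KO over wild-type, for each tested gene (grey point) of 8 related lists, with the number of tested genes in brackets and a red bar at the list median. The medians run from 0.058 for haem genes to 0.26 for hypoxia response genes.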

How the data were processed

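The authors deposited 1 table of FPKM values for 35275 genes, 1 column per library, with coordinates and gene lengths per the file headers. Per the submitters' processing notes the tools were STAR, HTSeq and edgeR, without versions, and the build was mm10; the strand setting, annotation release and filters stand in no source used here. FPKM times gene length is a whole multiple of 1 read's worth for 211650 of 211650 values (100%, within 0.05 reads), which gave read numbers. Values were analysed as log2(FPKM + 1). The 12165 genes that averaged 1 FPKM or more were fitted in limma (3.58.1, R 4.3.3) on genotype alone, with an intensity trend, two-sided, adjusted over all of them by Benjamini-Hochberg at 0.05. Members carry no test. The members, the lists and the tests were chosen with earlier results of these data known. Of 136 list symbols, all were matched, a few through an older symbol. From each list the 3 genes of smallest p were named, and from all tested genes the 5 most correlated with Heph, leaving out predicted genes, pseudogenes, unnamed clones and noncoding genes. Some genes that the rule names are not reported here. Hephl1 was named apart from it. Hairpins and exon overlaps were read from GENCODE M21. Alternatives covered pseudocount, filter, scaling, variance model, recovered reads, replicate block, sex and each library left out. Precision is set by 3 libraries a group. Plots were drawn with matplotlib 3.10.9.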

Additional observations from a re-analysis of the deposited data

How the results depend on the processing

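With 3 libraries a group and whole tissue, small differences in the members could not be resolved, and values near 3 reads (Trf) are set by counting. The log2 fold change of Heph stayed between 1.15 and 1.82 in all alternatives run; it was 1.74 with a pseudocount of 0.1 FPKM and 1.82 in limma voom on recovered reads, which add less to low values, and 1.15 to 1.42 with 1 library left out in turn, 1.15 being the value without EC-Jag1KO replicate 3. It was 1.16 without both female libraries. The ranges over the same alternatives were -0.42 to -0.29 for Cp, 0.25 to 0.54 for Tfrc, 0.29 to 0.54 for Hmox1, -0.058 to -0.018 for Slc11a2, -0.056 to 0.11 for Fth1 and -0.10 to 0.22 for Ftl1, so the direction of the ferritin genes is not settled. The number of genes at an adjusted p of 0.05 was 1 with sex as a covariate (RP24-479J14.1), 2 without both female libraries (Gm10020 and Gm6472) and 0 to 4 with 1 library left out in turn; the 4, without EC-Jag1KO replicate 1, were Gm14287, Eif3s6-ps2, Gm12191 and Rpl3-ps1, all named after their values were seen, and the cause was not tested. The number at an unadjusted p under 0.05 was 1436 with no filter, 594 without EC-Jag1KO replicate 1, 1437 without EC-Jag1KO replicate 2 and 601 without wild-type replicate 2, against 938. No gene of the 8 lists passed in any alternative, and the named list genes kept their direction in all of them, but with 1 library left out the log2 fold change of 15 of 24 left the range within 1.5 times of its full value. The ranges widest in ratio were 0.064 to 0.41 for Blvrb, 0.055 to 0.30 for Nup54, -0.34 to -0.076 for Slc22a17 and 0.21 (without wild-type replicate 2) to 0.71 (without EC-Jag1KO replicate 3) for Alad. Without EC-Jag1KO replicate 3 Lcn2 was at 0.46, and Me1 ran from 0.56 to 1.22 and Pgd from 0.36 to 0.75. With the replicate number as a block, 0 genes passed and Heph was at 1.32. Deviations of same-numbered libraries correlated at 0.055, 0.051 and -0.050. With 3 libraries a group these values cannot decide whether the numbers pair libraries. Replicate 3 is the female library in both genotypes, so the numbers also follow sex. The quasi-likelihood count test that had been planned on recovered reads was not run, since the deposited unit is FPKM.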
